A study of Mus musculus with 4 samples.

Results

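The genes described here are 47 genes of S phase and DNA replication, chosen by name from the deposited table of read counts per gene: the helicase, origin, polymerase, clamp, ligase and nucleotide synthesis genes, and the E2f, cyclin E and Cdk2 genes that control entry into S phase. All 47 names are among the 24419 gene names of the table, all 47 had counts in every library and all 47 passed the filter on low counts. RNA came from lymphatic endothelial cells, which form the lining of lymphatic vessels and had been sorted from mouse lungs on postnatal day 0 as negative for CD45, a leukocyte protein, and positive for CD31, an endothelial protein, and for GFP. Both groups carried Prox1-CreER, a Cre recombinase that tamoxifen activates in cells expressing Prox1, and the reporter Rosa26-mTmG, which turns green once Cre has acted. Jun-Ctrl mice were Prox1-CreER;Junf/+;Rosa26-mTmG, with 1 floxed Jun allele, and Jun-cKO mice were Prox1-CreER;Junf/f;Rosa26-mTmG, with both alleles floxed. Jun is one of the proteins that pair up as the transcription factor AP-1. The controls thus carried Cre and 1 floxed allele too, each library came from 3 to 5 pooled mice, the cells were mixed before amplification, and when Cre was induced is not stated in the labels. Each group had 2 libraries (n = 2 for every mean and test below), called replicate 1 and replicate 2, the second being the one marked as a replicate in its title.

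Before a cell divides it copies its DNA once. In G1 phase the origin recognition complex and the loading factors Cdc6 and Cdt1 place the ring-shaped Mcm helicase on DNA, and at the start of S phase the kinases Cdc7 and Cdk2 switch the helicase on with Cdc45 and the GINS complex. DNA polymerase alpha and its primase then begin each strand, the clamp Pcna is loaded by the Rfc complex and holds the other polymerases on DNA, and E2F transcription factors, released from the retinoblastoma protein, drive many of these genes. Lymphatic vessels of the lung are still growing around birth.

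Libraries held 16037416 and 6483514 counts (Jun-Ctrl) and 15558476 and 6911821 (Jun-cKO), so 3 counts equal 0.182 to 0.459 CPM. The targeted gene did not fall. Which part of Jun is floxed is not given in the labels, and why its count did not fall was not tested. Jun stood at 472 and 433 CPM (counts per 1000000, scaled by TMM) in Jun-Ctrl and at 524 and 474 CPM in Jun-cKO (log2 change 0.14 with SE 0.12, adjusted p = 0.354), so the second group is called Jun-cKO-labelled, and each rise or fall given here depends on the label being right. The lymphatic markers Lyve1 and Reln were abundant in all 4 libraries, with Lyve1 between 5971 and 10260.0 CPM, Prox1 was between 31.9 and 43.6 CPM, and Ccl21a had no count. Counts of markers that rose or fell are calls at an adjusted p under 0.05, which 19.0% of all tested genes passed higher and 22.5% lower. Of 13 tested lymphatic markers 5 rose and 1 fell, with a summed level of 21040 and 19990 CPM in Jun-Ctrl and 28170 and 28960 CPM in Jun-cKO-labelled libraries. In either direction 46.2% of them were called, near the 41.5% of all tested genes. Markers of other cells also moved with the groups. Of 21 tested lung epithelial markers 20 fell, with a summed level of 1932 and 2036 CPM in Jun-Ctrl and 218 and 214.5 CPM in Jun-cKO-labelled libraries. Among immune markers 10 of 13 tested ones fell and 2 rose (summed 517 to 529 against 267 to 280.0 CPM). The largest rise in the immune list was a log2 change of 10.95, also the largest over all tested genes. Of 16 tested mesenchymal markers 10 fell and 1 rose (919 to 959 against 707 to 749 CPM). Of 13 tested blood endothelial markers 4 rose and 4 fell (2085 to 2176 against 2396 to 2435 CPM). Called in either direction were 95.2% of the epithelial, 92.3% of the immune, 68.8% of the mesenchymal and 61.5% of the blood endothelial markers. Of 3 tested erythroid and platelet markers 1 fell (33.3% called). The summed level of that list was 6.85 and 11.5 CPM in Jun-Ctrl and 7.67 and 6.20 CPM in Jun-cKO-labelled libraries. In it 6 haemoglobin genes and Ppbp had no count in any library, and Cd3e of the immune list also had none. The part of these cells in the results on replication genes was not tested, and in sorted bulk RNA fewer dividing cells and less of a transcript per cell cannot be told apart.

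The replication genes as a group stood at nearly the same level in both groups, while single members moved in opposite directions. The summed level of the 47 genes was 1259 and 1255 CPM in Jun-Ctrl and 1208 and 1212 CPM in Jun-cKO-labelled libraries. In edgeR's quasi-likelihood test, with p adjusted by the Benjamini-Hochberg method over 12656 tested genes, 16 of the 47 passed an adjusted p of 0.05, 5 higher and 11 lower in Jun-cKO-labelled libraries. That is 34.0% of the members against 41.5% of all tested genes. The higher calls made up 10.6% of the members against 19.0% of all tested genes, and the lower calls 23.4% against 22.5%. The members' shares called in either direction or lower are therefore near or under those of all genes, and their median log2 fold change was -0.02 against 0.01 over all tested genes. The CPM values of the groups did not overlap for 34 of the 47 members (72.3%), against 71.3% of all tested genes. Fold changes ran from -1.89 for E2f2 to 0.86 for E2f3 and Pola2 on the log2 scale, and 4 members changed 2-fold or more, namely E2f2, Tk1, Cdc6 and E2f1, all lower. Calls were tried under 14 alternatives, or 13 for Cdc6 and Ccne1, which the stricter filter removed: other tools, scalings and filters, an offset for GC content, a replicate block, and each library left out. The 16 calls became 8 with Jun-Ctrl replicate 1 left out and 11 with DESeq2.

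**Figure D1:**
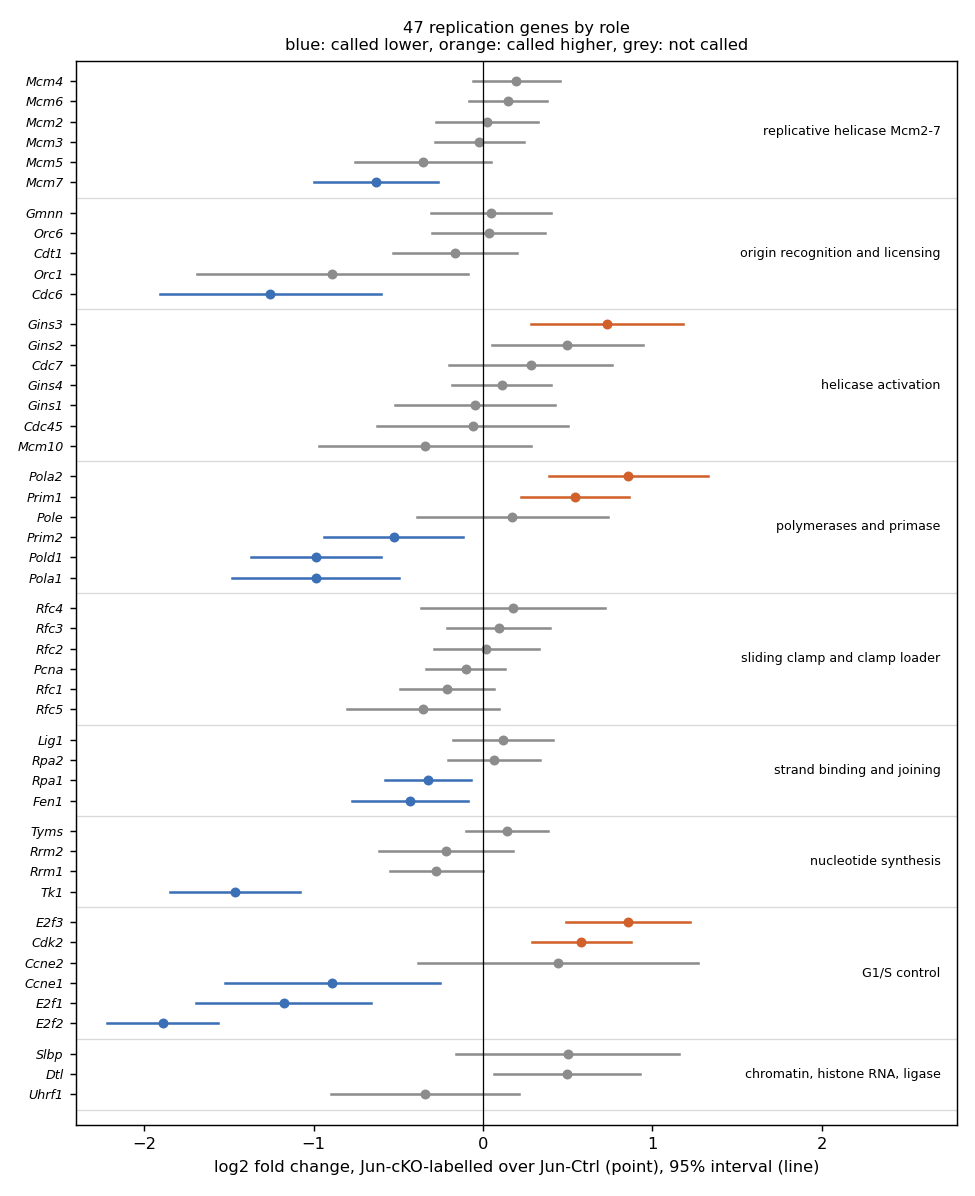
Log2 fold change of each of the 47 replication genes, Jun-cKO-labelled over Jun-Ctrl (points), with 95% intervals from edgeR (lines), grouped by role. The calls, in colour, stand mainly among polymerase and primase genes and among the G1/S regulators, where higher and lower calls lie side by side, while no clamp or clamp loader gene was called.

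The regulators of entry into S phase held the largest fall among the members, of E2f2, and with Pola2 the largest rise, of E2f3. Of 6 such genes 5 were called, 2 higher and 3 lower, where 41.5% of all tested genes were called. E2f2, one of the activating members of the E2F family, stood at 42.3 and 51.9 CPM in Jun-Ctrl and 13.3 and 11.5 CPM in Jun-cKO-labelled libraries. It fell 3.71-fold (log2 change -1.89 with SE 0.16, adjusted p = 1.71e-13), and both Jun-cKO-labelled values lay far below both control values. E2f1, the activator first found through its binding to the retinoblastoma protein, stood at 8.55 and 7.65 CPM in Jun-Ctrl and 3.41 and 3.99 CPM in Jun-cKO-labelled libraries and fell 2.26-fold (log2 change -1.18 with SE 0.26, adjusted p = 0.000232). E2f3, the third activator, stood at 10.7 and 9.94 CPM in Jun-Ctrl and 19.1 and 18.6 CPM in Jun-cKO-labelled libraries. It rose 1.81-fold (log2 change 0.86 with SE 0.18, adjusted p = 0.000166), with the 2 libraries of each group close together. The order among these 3 activators differed between the groups on the scale of CPM per 1000 bases of gene length. In Jun-Ctrl libraries E2f2 was the most abundant of the 3 at 8.46 and 10.4, above E2f1 at 2.76 and 2.47 and E2f3 at 2.00 and 1.85. In Jun-cKO-labelled libraries E2f3 was the most abundant of the 3 at 3.57 and 3.47, above E2f2 at 2.66 and 2.30 and E2f1 at 1.10 and 1.29. Within each library the 3 values were in the order of its group. On that scale the family's E2f4, E2f5 and E2f6, which are not among the 47 genes, lay above all 3 in every library, with E2f4 at 19.8 and 20.5 in the control libraries and 13.1 and 10.7 in the others.

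Cyclin E and its kinase partner moved apart. Cdk2, the kinase that cyclin E activates at the start of S phase, stood at 25.3 and 25.7 CPM in Jun-Ctrl and 38.7 and 37.4 CPM in Jun-cKO-labelled libraries and rose 1.496-fold (log2 change 0.58 with SE 0.15, adjusted p = 0.00125). Ccne1, which encodes cyclin E1, stood at 4.25 and 5.20 CPM in Jun-Ctrl and 2.29 and 2.81 CPM in Jun-cKO-labelled libraries and fell 1.85-fold (log2 change -0.89 with SE 0.32, adjusted p = 0.0200). Every Cdk2 value of the Jun-cKO-labelled libraries was above, and every Ccne1 value below, those of Jun-Ctrl. Ccne2, the gene of the other cyclin E, had 12 to 34 counts a library and was not called (log2 change 0.44 with SE 0.41, adjusted p = 0.406), and its 95% interval ran from -0.38 to 1.27. The Ccne1 call ended in DESeq2 (adjusted p = 0.139) and when a control library (replicate 1, 0.0734, or 2, 0.126) or Jun-cKO-labelled replicate 1 (0.177) was left out, with adjusted p between 0.0135 and 0.177 over 13 alternatives. The calls of E2f1, E2f2, E2f3 and Cdk2 held under all 14.

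**Figure D2:**
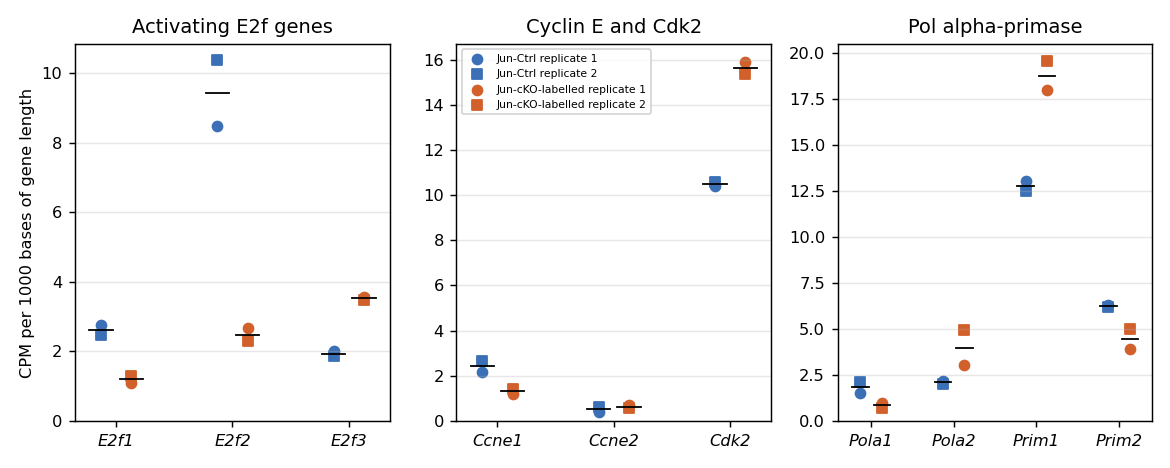
Level in each library, as TMM-scaled CPM per 1000 bases of gene length, of the E2f genes, the cyclin E and Cdk2 genes and the subunits of polymerase alpha-primase (points by library, black bars at group means, n = 2). Of the 3 activating E2f genes E2f2 is highest in Jun-Ctrl and E2f3 in Jun-cKO-labelled libraries, and Pola2 and Prim1 lie higher while Pola1 and Prim2 lie lower.

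Promoter letters were read because many replication genes are known to share E2F sites, which the choice of genes by name did not use. RefSeq promoter windows (GRCm38.p6, from 250 bases before a start to 50 after it) were found for 38 of the 47 genes, in 46 windows. E2F letters were taken as TTTCCCGC, TTTGGCGC, TTTCGCGC or TTTGCCGC on either strand, with overlapping matches counted. They stood in a window of 17 of the 38 genes (44.7%), against 4.62% of 9653 tested genes with a window and 2.6% of all 27025 genes in the RefSeq table. Of the genes with a window, E2F letters were in 3 of 5 called higher, 5 of 10 called lower and 9 of 23 not called. The letters CCAAT on either strand, the core of the NF-Y site, were in a window of 25 of the 38 genes (65.8%), against 42.6% of tested genes. The AP-1 letters TGAGTCA or TGACTCA, which read as each other's reverse complement, were in none of the 46 member windows, against 3.72% of the windows of tested genes. That says only that these letters are not in these windows. A match is a run of letters and not a measured site.

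The windows of 4 genes are shown because these are the called members with E2F letters and the smallest p, E2f2 and Pold1 among the lower and E2f3 and Cdk2 among the higher. Each is written 5′ to 3′ on the gene's strand, with the E2F letters in capitals. They begin at base 40 from the start in E2f2 (chr4:136172024-136172323, plus strand) and Pold1 (chr7:44548766-44549065, minus strand), and 11 bases before it in E2f3 (chr13:29986014-29986313, minus strand) and 140 bases before it in Cdk2 (chr10:128705002-128705301, minus strand).
E2f2: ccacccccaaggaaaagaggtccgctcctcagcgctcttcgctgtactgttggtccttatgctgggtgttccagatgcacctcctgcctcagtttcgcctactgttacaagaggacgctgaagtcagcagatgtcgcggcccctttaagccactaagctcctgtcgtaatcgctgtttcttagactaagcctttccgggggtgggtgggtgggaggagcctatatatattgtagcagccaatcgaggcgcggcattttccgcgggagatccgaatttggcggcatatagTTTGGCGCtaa
Pold1: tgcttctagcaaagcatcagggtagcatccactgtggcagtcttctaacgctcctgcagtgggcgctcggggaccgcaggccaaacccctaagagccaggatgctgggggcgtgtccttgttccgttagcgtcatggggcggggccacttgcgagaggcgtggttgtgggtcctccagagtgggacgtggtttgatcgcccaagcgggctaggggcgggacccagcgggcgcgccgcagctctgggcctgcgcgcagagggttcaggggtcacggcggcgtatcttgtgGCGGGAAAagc
E2f3: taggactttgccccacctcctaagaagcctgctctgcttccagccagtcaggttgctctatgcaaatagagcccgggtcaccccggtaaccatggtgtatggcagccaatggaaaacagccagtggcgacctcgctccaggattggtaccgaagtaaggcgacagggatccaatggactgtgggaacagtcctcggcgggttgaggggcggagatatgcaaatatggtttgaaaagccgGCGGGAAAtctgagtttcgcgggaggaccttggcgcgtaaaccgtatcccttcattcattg
Cdk2: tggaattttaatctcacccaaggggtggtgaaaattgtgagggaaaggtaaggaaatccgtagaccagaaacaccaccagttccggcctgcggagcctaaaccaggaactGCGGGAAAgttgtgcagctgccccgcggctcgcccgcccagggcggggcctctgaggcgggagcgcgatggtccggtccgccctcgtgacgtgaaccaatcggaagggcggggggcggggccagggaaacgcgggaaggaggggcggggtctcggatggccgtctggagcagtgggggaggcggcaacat
The E2f2 window shown carries TTTGGCGC, and the other 3 shown carry GCGGGAAA, the reverse complement of TTTCCCGC. Genes with the same letters were thus called in opposite directions. E2f2 and E2f3 each had another window, at another annotated start (chr4:136180532-136180831 and chr13:29984342-29984641), and neither of those holds E2F letters.

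Polymerase and primase genes had 5 calls of 6, where 41.5% of all tested genes were called, and the subunits of 1 enzyme moved in opposite directions. Polymerase alpha-primase, which starts each new strand with an RNA and DNA primer, is built from the products of Pola1, Pola2, Prim1 and Prim2. Pola1, its catalytic polymerase subunit, stood at 8.19 and 11.3 CPM in Jun-Ctrl and 5.31 and 3.84 CPM in Jun-cKO-labelled libraries and fell 1.98-fold (log2 change -0.99 with SE 0.25, adjusted p = 0.00106). Prim2, the large primase subunit, stood at 12.5 and 12.2 CPM in Jun-Ctrl and 7.73 and 9.89 CPM in Jun-cKO-labelled libraries and fell 1.44-fold (log2 change -0.53 with SE 0.20, adjusted p = 0.0342). The 2 other subunit genes were higher in both Jun-cKO-labelled libraries than in either control. Pola2, the accessory subunit, stood at 6.19 and 5.81 CPM in Jun-Ctrl and 8.72 and 14.2 CPM in Jun-cKO-labelled libraries and rose 1.81-fold (log2 change 0.86 with SE 0.23, adjusted p = 0.00266), and its Jun-cKO-labelled values lay far apart. Prim1, the catalytic primase, stood at 20.01 and 19.1 CPM in Jun-Ctrl and 27.6 and 29.97 CPM in Jun-cKO-labelled libraries and rose 1.46-fold (log2 change 0.54 with SE 0.16, adjusted p = 0.00492). On the scale of CPM per 1000 bases Prim1 was the most abundant of the 4 in every library, between 12.5 and 19.6, and Pola1 was at most 2.12.

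Of the polymerases that extend the strands, Pold1, the catalytic subunit of polymerase delta, stood at 17.0 and 22.3 CPM in Jun-Ctrl and 10.5 and 8.56 CPM in Jun-cKO-labelled libraries and fell 1.98-fold (log2 change -0.98 with SE 0.19, adjusted p = 4.54e-05). The catalytic gene of polymerase epsilon, Pole, was not called at 4.06 and 4.28 CPM in Jun-Ctrl and 4.46 and 5.02 CPM in Jun-cKO-labelled libraries (log2 change 0.17 with SE 0.28, adjusted p = 0.653). Its 95% interval ran from -0.39 to 0.74. The Prim2 call ended in DESeq2 (adjusted p = 0.175) and when Jun-Ctrl replicate 1 (0.180), Jun-Ctrl replicate 2 (0.0887) or Jun-cKO-labelled replicate 1 (0.298) was left out, over a range of 0.00223 to 0.298. The Prim1 call ended when either control library was left out (adjusted p = 0.0566 with replicate 1 out and 0.0560 with replicate 2 out, range 0.00280 to 0.0566). The Pola2 call ended with Jun-Ctrl replicate 1 out (0.0725) or Jun-cKO-labelled replicate 2 out (0.0773), over a range of 2.10e-05 to 0.0773. The Pola1 and Pold1 calls held under all 14 alternatives.

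**Figure D3:**
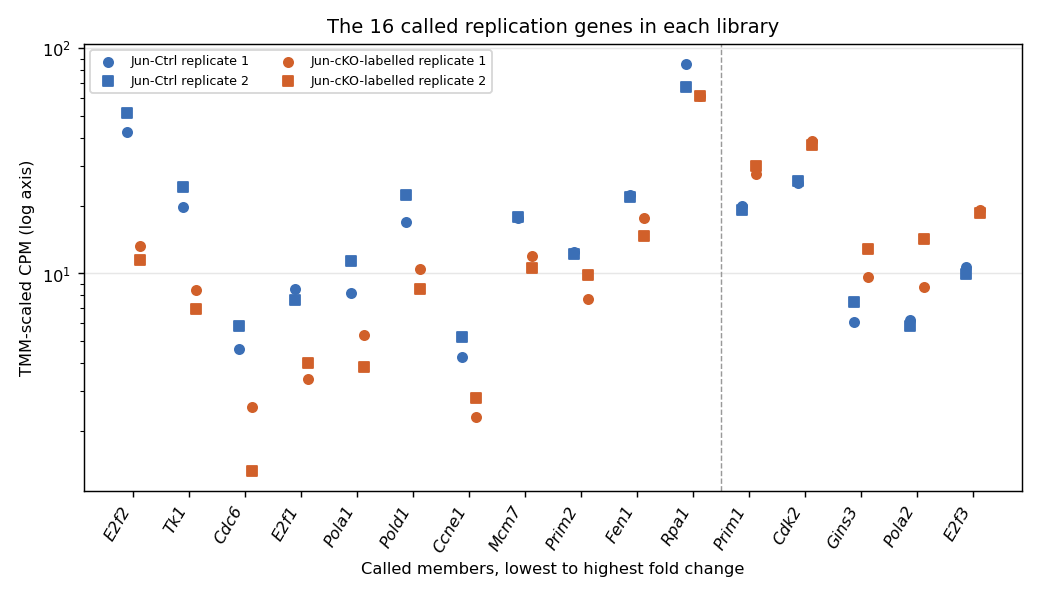
TMM-scaled CPM (log axis) of the 16 called members in each library, ordered by fold change, with a dashed line between lower and higher calls. Blue points are Jun-Ctrl and orange points Jun-cKO-labelled libraries, and for each gene shown the 2 colours do not overlap.

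The Mcm2 to Mcm7 genes, whose products form the 6-part ring of the replicative helicase, were mostly without a call. Of the 6 genes 1 was called (16.7%, against 41.5% of all tested genes). Mcm6 was the most abundant per length, at a mean of 65.2 CPM per 1000 bases over the 4 libraries, followed by Mcm3 at 17.3, Mcm4 at 15.7, Mcm2 at 8.63, Mcm7 at 6.06 and Mcm5 at 3.12. Mcm6 stood at 169.8 and 189.9 CPM in Jun-Ctrl and 198 and 199 CPM in Jun-cKO-labelled libraries and was not called (log2 change 0.15 with SE 0.11, adjusted p = 0.318), with a 95% interval from -0.08 to 0.38. Mcm2, Mcm3 and Mcm4 were not called either, at log2 fold changes of 0.02, -0.02 and 0.20, and Mcm5 was at -0.35 (SE 0.20, adjusted p = 0.152). Mcm7 was the 1 ring gene with a call. It stood at 17.7 and 17.7 CPM in Jun-Ctrl and 12.0 and 10.6 CPM in Jun-cKO-labelled libraries and fell 1.55-fold (log2 change -0.63 with SE 0.18, adjusted p = 0.00436). The gene (chromosome 5, 138164583 to 138172422, minus strand, GRCm38) shares 64 exonic bases with Cops6 and 321 with Ap4m1 on the other strand, and the library kit does not mark strand. Both neighbours were called lower too, at log2 fold changes of -0.60 for Cops6 and -1.15 for Ap4m1, and their part in the Mcm7 count was not tested. The Mcm7 call ended without Jun-Ctrl replicate 1 (adjusted p = 0.0549, range 0.00198 to 0.0549).

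Genes that mark and license origins gave 1 call of 5, where 41.5% of all tested genes were called. Cdc6, the factor that loads the helicase, stood at 4.61 and 5.81 CPM in Jun-Ctrl and 2.56 and 1.33 CPM in Jun-cKO-labelled libraries and fell 2.39-fold (log2 change -1.25 with SE 0.33, adjusted p = 0.00164). It held the smallest count of any member, 9 in Jun-cKO-labelled replicate 2. The groups did not overlap, and the call held in each of the 13 alternatives that tested it (adjusted p from 0.000148 to 0.0282). Cdt1, the other loading factor, and Gmnn, which encodes its inhibitor geminin, were not called, at log2 changes of -0.17 and 0.05. Of the origin recognition subunits, Orc6 stood at 23.6 and 22.8 CPM in Jun-Ctrl and 20.4 and 28.2 CPM in Jun-cKO-labelled libraries with overlapping groups (log2 change 0.03). Orc6 shares 171 exonic bases with Vps35 on the other strand (143 to 199 CPM, called higher), whose part in the Orc6 count was not tested. Orc1, at 2.55 and 2.91 CPM in Jun-Ctrl and 1.18 and 1.92 CPM in Jun-cKO-labelled libraries, was below the controls in both Jun-cKO-labelled libraries without a call (log2 change -0.89 with SE 0.40, adjusted p = 0.0678), on 13 to 42 counts a library, and its interval of -1.69 to -0.09 reached past 2-fold. Orc1 was called once Jun-cKO-labelled replicate 2 was left out (adjusted p = 0.0397) and with the GC offset described below (0.0370), over a range of 0.0248 to 0.509.

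Genes that switch the loaded helicase on gave 1 call of 7, a higher one (14.3%, against 41.5% of all tested genes). Gins3, a subunit of the GINS complex, stood at 6.06 and 7.5 CPM in Jun-Ctrl and 9.63 and 12.8 CPM in Jun-cKO-labelled libraries and rose 1.66-fold (log2 change 0.73 with SE 0.22, adjusted p = 0.00730). Gins4, the most abundant GINS gene per length at 23.2 CPM per 1000 bases, stood at 30.6 and 30.3 CPM in Jun-Ctrl and 32.8 and 33.1 CPM in Jun-cKO-labelled libraries and was not called (log2 change 0.11, SE 0.15). Gins1 was at a log2 change of -0.05, also without a call. Gins2 was above the controls in both Jun-cKO-labelled libraries (log2 change 0.50 with SE 0.22, adjusted p = 0.0672). In the GENCODE M21 annotation 2758 of its exonic bases (67.3%) are shared with Gse1 on the other strand, whose log2 fold change was -1.25. The counted Gins2 is only 1038 bases long, so that share does not describe the counted exons. The part of Gse1 reads in the Gins2 count was not tested. On the log2 scale the kinase gene Cdc7 was at 0.28, Cdc45 at -0.06 and Mcm10, a factor that helps open the helicase, at -0.34, all without a call. The Gins3 call ended in DESeq2 (adjusted p = 0.0683) and when Jun-Ctrl replicate 1 (0.202) or Jun-cKO-labelled replicate 2 (0.0533) was left out, over a range of 0.00121 to 0.202. Gins2 was called without Jun-cKO-labelled replicate 1 (0.0474) and with the GC offset (0.0372), over a range of 0.0229 to 0.282.

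The clamp and its loader had no call among 6 genes, where 41.5% of all tested genes were called. Pcna, the sliding clamp and the most abundant member per length at 127 CPM per 1000 bases, stood at 178 and 155 CPM in Jun-Ctrl and 163 and 147 CPM in Jun-cKO-labelled libraries, with overlapping groups (log2 change -0.10 with SE 0.12, adjusted p = 0.503). Its 95% interval of -0.34 to 0.13 on the log2 scale lies within 1.5-fold either way. The 5 Rfc genes of the clamp loader ran from a log2 change of -0.35 for Rfc5 to 0.18 for Rfc4. Rfc5 shares 499 exonic bases with Wsb2 (151 to 166 CPM), on the other strand. Likewise Rfc4 shares 194 with Eif4a2 (60.3 to 89.2 CPM, called higher) and Rfc2 952 with Lat2 (2.14 to 4.43 CPM). The part of these neighbours in the Rfc counts was not tested. Rfc3, the most abundant of the 5 Rfc genes per length, stood at 27.7 and 29.4 CPM in Jun-Ctrl and 32.3 and 27.8 CPM in Jun-cKO-labelled libraries, and its groups overlapped. With the GC offset Pcna and Rfc1 were called lower (adjusted p = 0.0390 and 0.0226), at log2 changes of -0.27 and -0.36. Over all alternatives adjusted p ran from 0.0121 to 0.976 for Pcna and from 0.00861 to 0.444 for Rfc1.

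Genes that bind single strands and join fragments fell slightly or were not called. Rpa1, the large subunit of the protein that coats single-stranded DNA, stood at 85.0 and 67.5 CPM in Jun-Ctrl and 61.4 and 61.4 CPM in Jun-cKO-labelled libraries and fell 1.25-fold (log2 change -0.32 with SE 0.13, adjusted p = 0.0345), while Rpa2, the middle subunit, stood at 43.4 and 38.4 CPM in Jun-Ctrl and 43.1 and 43.1 CPM in Jun-cKO-labelled libraries (log2 change 0.07, not called). Fen1, the nuclease that trims the flaps of lagging-strand fragments, stood at 22.3 and 21.9 CPM in Jun-Ctrl and 17.7 and 14.6 CPM in Jun-cKO-labelled libraries and fell 1.35-fold (log2 change -0.43 with SE 0.17, adjusted p = 0.0366). Of the annotated exonic bases of Fen1 78.8% are shared with Gm10143 and 5.37% with Tmem258, both on the other strand, and the part of their reads in the Fen1 count was not tested. Lig1, the ligase that seals them, was at a log2 change of 0.12 without a call. With Prim2 these calls have the 3 largest adjusted p of the called members. Rpa1 had an adjusted p of 0.119 in DESeq2, 0.521 with Jun-Ctrl replicate 1 left out, and 0.0683 and 0.0623 with Jun-cKO-labelled replicate 1 and 2 left out (range 0.000380 to 0.521). Fen1 had 0.131 in DESeq2, 0.164 and 0.0905 with Jun-Ctrl replicate 1 and 2 left out, 0.185 with Jun-cKO-labelled replicate 2 left out and 0.0841 with the GC offset (range 0.0174 to 0.185).

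Among the genes that make DNA precursors, the salvage enzyme fell and the enzymes of synthesis were not called. That is 1 call of 4 (25.0%, against 41.5% of all tested genes). Tk1, thymidine kinase, which recycles thymidine, stood at 19.8 and 24.2 CPM in Jun-Ctrl and 8.45 and 6.94 CPM in Jun-cKO-labelled libraries. It fell 2.755-fold (log2 change -1.46 with SE 0.19, adjusted p = 2.42e-08), the smallest p after that of E2f2. Tyms, thymidylate synthase, makes the same nucleotide afresh and was the most abundant of the 4 per length. It stood at 71.1 and 67.6 CPM in Jun-Ctrl and 77.6 and 75.7 CPM in Jun-cKO-labelled libraries and was not called (log2 change 0.14, SE 0.12), with an interval of -0.10 to 0.39. The ribonucleotide reductase genes Rrm1 and Rrm2 were at log2 changes of -0.28 (adjusted p = 0.0988) and -0.22 (0.389). Rrm1 was called lower scaled by library totals, without Jun-cKO-labelled replicate 2 and with the GC offset (range 0.000235 to 0.548, 0.0331 without that library). The Tk1 call held under all 14 alternatives, and the gene shares 83 exonic bases with Afmid on the other strand, which was not called at a log2 change of -0.19.

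The last 3 members had no call, where 41.5% of all tested genes were called. Dtl, a substrate receptor of the ubiquitin ligase that removes Cdt1, was above the controls in both Jun-cKO-labelled libraries (log2 change 0.49 with SE 0.21, adjusted p = 0.0581) and was called without Jun-cKO-labelled replicate 2 (0.0320, range 0.0320 to 0.279). Slbp, which binds the stem-loop of histone messages, was at a log2 change of 0.50 on 14 to 52 counts a library. Uhrf1, which keeps DNA methylation through replication, was at -0.34 on that scale. Of all 31 members without a call, 17 had a 95% interval within 1.5-fold either way and 28 within 2-fold, so a larger change lies outside those intervals, while for 3, Orc1, Ccne2 and Slbp, a 2-fold change lay within reach of the interval.

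Other genes of replication, from a list of the pathway not picked for how its genes moved, gave 25 calls of 71 tested (35.2%, under the 41.5% of all tested genes). Of these 16 were higher (22.5%, against 19.0%) and 9 lower (12.7%, against 22.5%), and the median log2 fold change was 0.08. The origin recognition gene Orc5 rose (log2 change 1.15 with SE 0.20, adjusted p = 8.48e-06), from 7.52 and 7.04 to 14.9 and 18.2 CPM. E2f5, a repressive member of the E2F family, rose (log2 change 0.83 with SE 0.15, adjusted p = 2.48e-05), and E2f4, the other repressor that binds pocket proteins, fell (log2 change -0.74 with SE 0.15, adjusted p = 8.20e-05). Clspn, which carries the checkpoint signal from stalled forks, fell (log2 change -1.17 with SE 0.24, adjusted p = 8.41e-05). Pold3, an accessory subunit of polymerase delta, rose (log2 change 0.50) and was named after its values were seen. The activating E2f genes and the repressive ones thus each held a called rise and a called fall. With Jun-Ctrl replicate 1 left out this list had 13 calls, and with Jun-Ctrl replicate 2 left out 15.

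Genes of the next phases of the cycle are set beside these for comparison. Of 54 genes of G2 phase and mitosis, 21 were called lower (38.9%, against 22.5% of all tested genes) and 1 higher (against 19.0%). In either direction 40.7% were called, near the 41.5% of all tested genes, with a median log2 fold change of -0.44. Foxm1, a transcription factor of mitotic genes, fell (log2 change -1.40 with SE 0.20, adjusted p = 1.73e-07), as did the mitotic kinase gene Plk1 (log2 change -1.13 with SE 0.23, adjusted p = 7.31e-05) and the spindle gene Nusap1 (log2 change -1.01). Bub3 of the spindle checkpoint rose (log2 change 0.55). Mki67, the proliferation marker, stood at 34.8 and 37.3 CPM in Jun-Ctrl and 25.6 and 26.4 CPM in Jun-cKO-labelled libraries (log2 change -0.47 with SE 0.15, adjusted p = 0.00952), and was named after its values were seen. The difference between this list and the replication genes was not tested. Without Jun-Ctrl replicate 1 the list had 9 lower calls, and with the GC offset 34.

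**Figure D4:**
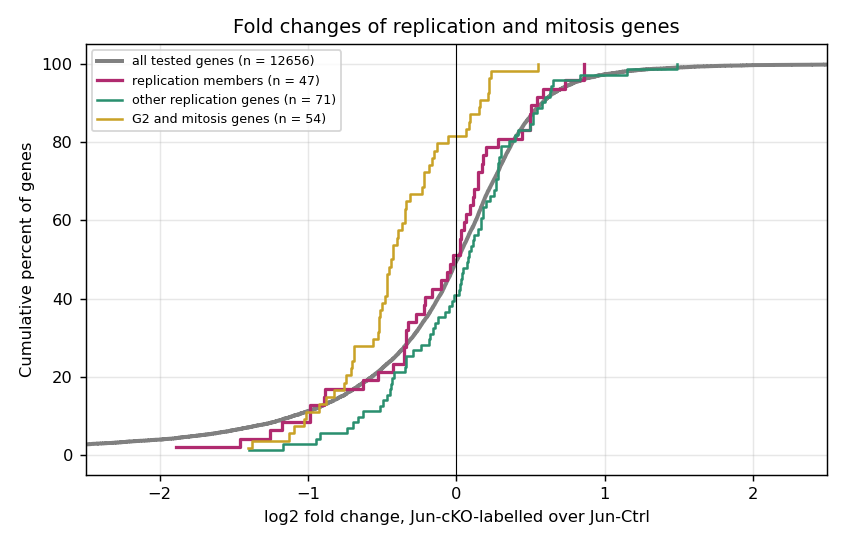
Cumulative percent of genes by log2 fold change, Jun-cKO-labelled over Jun-Ctrl, for all tested genes, the 47 members, the other replication genes and the G2 and mitosis genes. The members' curve follows that of all tested genes, at a median of -0.02 against 0.01, and the curve of G2 and mitosis genes lies to the left at a median of -0.44.

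The 2 libraries marked as replicates and the 2 unmarked ones were also compared as pairs, with 1 library a group and so without a test. The log2 ratio of Jun-cKO-labelled over Jun-Ctrl had the same sign in both pairs for 36 of the 47 members, for all 16 called ones and for 20 of the 31 others. For the 16 this was fixed beforehand, as their groups did not overlap, so the pairs add nothing to those calls. Groups did not overlap for 34 of the 47 members (72.3%) and for 71.3% of all tested genes. How many of all tested genes had the same sign was not counted. For E2f2 the ratio was -1.67 in the unmarked pair and -2.16 in the marked pair, for Tk1 -1.23 and -1.79, for E2f3 0.83 and 0.90, and for Cdk2 0.61 and 0.54. Pola1 was at -0.62 and -1.54, Pold1 at -0.69 and -1.38 and Pola2 at 0.49 and 1.27, each farther from 0 in the marked pair. Cdc6 had the widest gap, at -0.84 and -2.07.

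Base composition moved with the comparison. Over 12188 tested genes the log2 fold change fell with the GC content of the transcript (Spearman's rho -0.336, across genes, which are not replicates), and over the 47 members rho was -0.307. The ratio of replicate 2 to replicate 1 followed GC content as well, with a rho of 0.279 for Jun-Ctrl and of -0.219 for the Jun-cKO-labelled libraries. The members ranged from 36.3% GC in Ccne2 to 60.7% in Pold1, with a median of 49.4% against 50.1% over all tested genes. With a GC offset for each library, E2f2 was at -1.66, Tk1 at -1.29, E2f1 at -0.89, Pold1 at -0.57 and E2f3 at 0.78, all still called. Pold1 moved the furthest of these, from -0.98. Pola1, one of the members poorest in GC at 41.5%, went the other way, from -0.99 to -1.20. The offset gave 20 calls among the members, 6 higher and 14 lower. Gained were Orc1, Gins2, Pcna, Rfc1 and Rrm1, and Fen1 was lost.

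**Figure D5:**
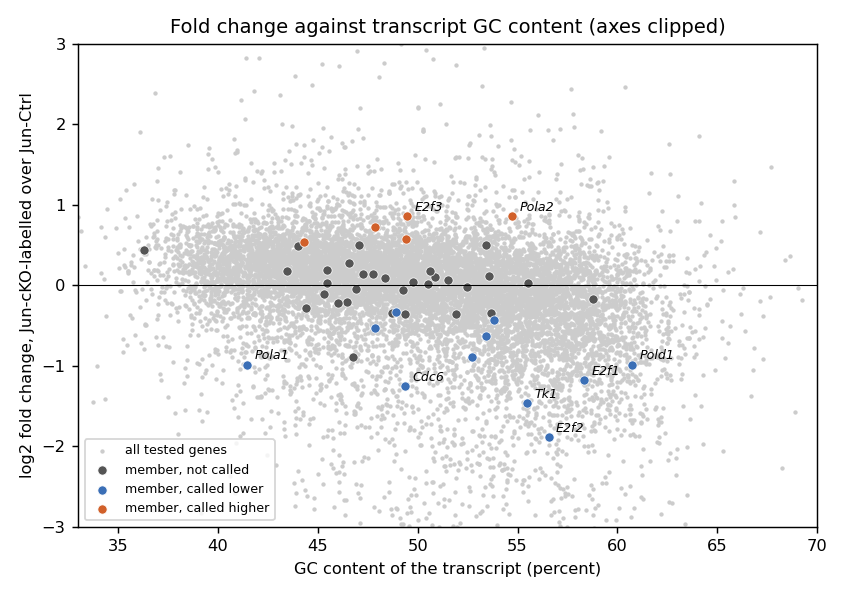
Log2 fold change, Jun-cKO-labelled over Jun-Ctrl, against transcript GC content in percent, for all tested genes (light grey) and the 47 members (dark grey without a call, blue lower, orange higher), with both axes clipped. Lower calls run from Pola1 at 41.5% to Pold1 at 60.7%, and the lower call next poorest in GC after Pola1 is Prim2 at 47.8%. Over the members rho was -0.307.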

How the data were processed

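The authors deposited unnormalized counts of reads for each gene and library, beside a length for each gene, per the file headers. The submitters' processing notes name the tools STAR 2.7.2a, featureCounts 1.6.4 and edgeR 3.28.1 and the build mm10, with no roles. Reads were 79 bases long and came from RNA amplified with a RiboAmp kit, per the labels' protocols. Annotation and strand setting: not given in the sources used here. Reads from such amplified RNA are not separate molecules, and whether amplification biased levels per length was not tested.

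Counts were fitted with edgeR 4.0.16 (TMM, filterByExpr, glmQLFit and glmQLFTest, R 4.3.3), Jun-cKO minus Jun-Ctrl over all 4 libraries without a block, Benjamini-Hochberg adjusted over all 12656 tested genes and called under 0.05. A standard error is the log2 fold change over the root of its F statistic. Pair ratios add 0.5 counts. The GC offset is a loess curve, span 0.5, fitted per library to log2 deviations against the GC content of GENCODE M21 transcripts (GRCm38), which 96.3% of tested genes matched by name. Gene coordinates and shared exonic bases are from the same release, over all annotated exons of a gene. The exons behind the deposited counts may differ. The 14 alternatives were DESeq2 1.42.0 and its size factors, limma-voom (limma 3.58.1), upper-quartile and library-total scaling, no filter, a filter at 50 counts in 2 libraries, the GC offset, a replicate block, both together, and each library left out. The tests were also run on simulated data, with the same spread for every gene and few changed genes. Those settings differ from these data, so no conclusion about the calls is drawn from them.

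Libraries of the same group were farther apart than sampling gives (median chi-square per gene 1.27 in Jun-Ctrl and 1.59 in Jun-cKO-labelled libraries, against 0.455 from sampling alone), and no source says that they come from separate animals, so the spread behind the p-values is that of these 4 libraries alone and may be technical. Numbers 1 and 2 follow accession order. The members, lists and motifs were chosen with earlier results of these data known. Values are given in full for all called members and for the most abundant member of each complex, and of other lists for up to 4 called genes with the smallest p.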

Additional observations from a re-analysis of the deposited data

How the results depend on the processing

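Of the 16 calls among the replication genes, 7 (E2f1, E2f2, E2f3, Cdk2, Tk1, Pola1 and Pold1) held in the same direction under all 14 alternatives, and no member or list that was called turned its direction under any of them. Leaving out 1 library in turn gave 8 to 15 calls among the members (2 to 6 higher, 6 to 11 lower), 13 to 23 among the other replication genes (7 to 15 higher, 5 to 9 lower), 10 to 21 among the G2 and mitosis genes (1 to 2 higher, 9 to 20 lower) and 2992 to 4794 over all genes (1177 to 2214 higher, 1815 to 2656 lower). The lowest counts came without Jun-Ctrl replicate 1, except the 7 higher calls of other replication genes, which came without Jun-Ctrl replicate 2. Those fits test fewer libraries, and the lone library of a group is assumed to vary like the others. DESeq2 called 7 members lower in place of 11, and 1564 genes higher in place of 2408 over all genes. The GC offset called 35 G2 and mitosis genes (34 lower) in place of 22, and together with the replicate block 36 (35 lower), with 15 other replication genes lower in place of 9. The cause of these shifts was not tested. The replicate block by title mark gave 16 calls among the members, as without it, and changed no member's call. The correlation of same-marked libraries' deviations between groups was 0.0732. Same-marked libraries are alike in depth, with 16037416 and 15558476 counts in the unmarked and 6483514 and 6911821 in the marked ones. With 1 library left out in turn, the members' median log2 fold change ran from -0.12 to 0.02. Standard errors of the members ran from 0.115 to 0.411 on the log2 scale, so for members with few counts such as Ccne2 only large changes could be called.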
